A study of Mus musculus with 285 samples.

Results

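Myod1 encodes MyoD, the muscle-specific transcription factor of the basic helix-loop-helix (bHLH) class, and its values were followed here over 285 mouse skeletal muscle samples. It was chosen by the spread of its own values over the mice, and the correlations below pool or split these same values. All probes annotated to it were taken, which gave 1 probe among 23560 on the array and 1 gene among 11622 named genes measured. The F2 animals, females and males, descend from C57BL/6J and C3H/HeJ parents, crossed in either order. Chow with 4% fat was fed up to the age of 8 weeks. A Western diet (42% fat, 0.15% cholesterol) followed for 12 weeks, and muscle was taken at 20 weeks of age after fasting for 12 hours. RNA of each mouse carried the dye Cy3 and was hybridised against a Cy5 pool that held an equal portion of every sample. Which muscle was taken, and the sex and cross direction of each mouse, are not in the labels, so the mice form 1 group without a treated or control arm. Each value is a log2 ratio of mouse over pool and gives no absolute level, and in this bulk RNA fewer cells of a type and less RNA per cell cannot be told apart. The direction and the log base of the ratios are inferred, and a different base would rescale the log2 values but no correlation.

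MyoD is best known as the factor that can turn other cells into muscle. It pairs with E proteins, binds E-box sequences and switches on Myog and genes of the muscle fibre, while Myf5 and Myf6 are its relatives. In adult muscle it is made in activated satellite cells, the muscle stem cells, and in fibres, where it is known to be higher in fast than in slow fibres, to follow the circadian clock and to rise after loss of the nerve.

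The E-box that MyoD prefers is CAGCTG, which reads the same on both strands and shares no full match with the clock factors' E-box CACGTG. Promoters of 300 bases, 250 before and 50 after the start, were searched for both motifs in the RefSeq table of build GRCm38.p6. CAGCTG stood in 16.1% of 27025 promoters, 1 promoter per gene, and CACGTG in 7.24%. Of 23 listed MyoD target genes, 16 had a promoter in the table and 6 of them (37.5%) held CAGCTG. Of the 100 genes that passed the test against Myod1 described below, 81 had a promoter and 16 (19.8%) held CAGCTG, against 7 (8.64%) with CACGTG. Myod1 itself has no entry in that table. The promoters below are shown because they set a pair of known MyoD targets, the acetylcholine receptor genes Chrna1 and Chrng, beside Car11 and Ush1c, the genes whose values were most like those of Myod1. Capitals mark CAGCTG, and a match is a description of these letters only.
Chrna1, chr2:73580289-73580588, minus strand: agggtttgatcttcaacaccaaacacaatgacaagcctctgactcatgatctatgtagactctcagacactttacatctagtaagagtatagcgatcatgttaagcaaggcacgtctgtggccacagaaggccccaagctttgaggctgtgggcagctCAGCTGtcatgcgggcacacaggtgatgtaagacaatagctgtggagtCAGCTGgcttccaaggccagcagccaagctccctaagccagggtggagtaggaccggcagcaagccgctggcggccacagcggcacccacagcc
Chrng, chr1:87205561-87205860, plus strand: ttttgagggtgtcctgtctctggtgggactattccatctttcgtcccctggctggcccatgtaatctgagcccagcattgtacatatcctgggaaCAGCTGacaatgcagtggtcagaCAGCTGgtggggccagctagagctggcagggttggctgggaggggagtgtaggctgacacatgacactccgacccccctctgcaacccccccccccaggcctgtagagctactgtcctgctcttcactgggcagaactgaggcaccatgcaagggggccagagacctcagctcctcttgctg
Car11, chr7:45699554-45699853, plus strand: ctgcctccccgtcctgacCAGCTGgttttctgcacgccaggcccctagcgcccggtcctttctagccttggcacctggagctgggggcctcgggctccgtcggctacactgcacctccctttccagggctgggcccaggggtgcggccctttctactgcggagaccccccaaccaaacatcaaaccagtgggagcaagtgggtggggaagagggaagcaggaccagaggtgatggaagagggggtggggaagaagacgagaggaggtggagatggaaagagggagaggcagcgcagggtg
Ush1c, chr7:46238441-46238740, minus strand: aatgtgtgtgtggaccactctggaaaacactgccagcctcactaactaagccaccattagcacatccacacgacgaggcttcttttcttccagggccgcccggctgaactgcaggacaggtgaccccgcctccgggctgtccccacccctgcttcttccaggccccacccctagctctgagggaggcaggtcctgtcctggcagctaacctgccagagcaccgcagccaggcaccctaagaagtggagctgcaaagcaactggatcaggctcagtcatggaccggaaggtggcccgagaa
Chrna1 and Chrng each hold 2 copies of CAGCTG in this window. Car11 holds 1 in the first of its 2 listed promoters, and Ush1c holds 0.

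Myod1 ranged from -3.97 log2 in mouse 143 to 2.05 in mouse 69, with a median of -0.44 and quartiles of -1.79 and 0.32. Its SD was 1.38, the 20th largest of 11622 named genes, where the median gene had 0.21. It lay at least 2-fold below the pool in 97 mice, at least 2-fold above it in 21 and between these bounds in 167. No mouse lacked a value. The spread is what chose the gene, so these figures carry no test.

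The mice fell into 2 clusters of Myod1. A mixture of 2 normal distributions described the values better than 1, with a gain of 68.3 in the Bayesian information criterion (BIC), and 3 or 4 distributions gave a poorer criterion. The lower cluster held 76 mice (26.7%), from -3.97 to -1.75 with a median of -2.72. The upper cluster held 209 mice (73.3%), from -1.68 to 2.05 with a median of -0.05. The means of the 2 fitted distributions were -2.68 (SD 0.52) and -0.02 (SD 0.78), a difference of 2.66 log2 or 6.32-fold. No empty stretch parts them, since 23 mice lay within 0.5 log2 of the boundary. By the same rule 219 named genes (1.88%) showed clusters.

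**Figure D1:**
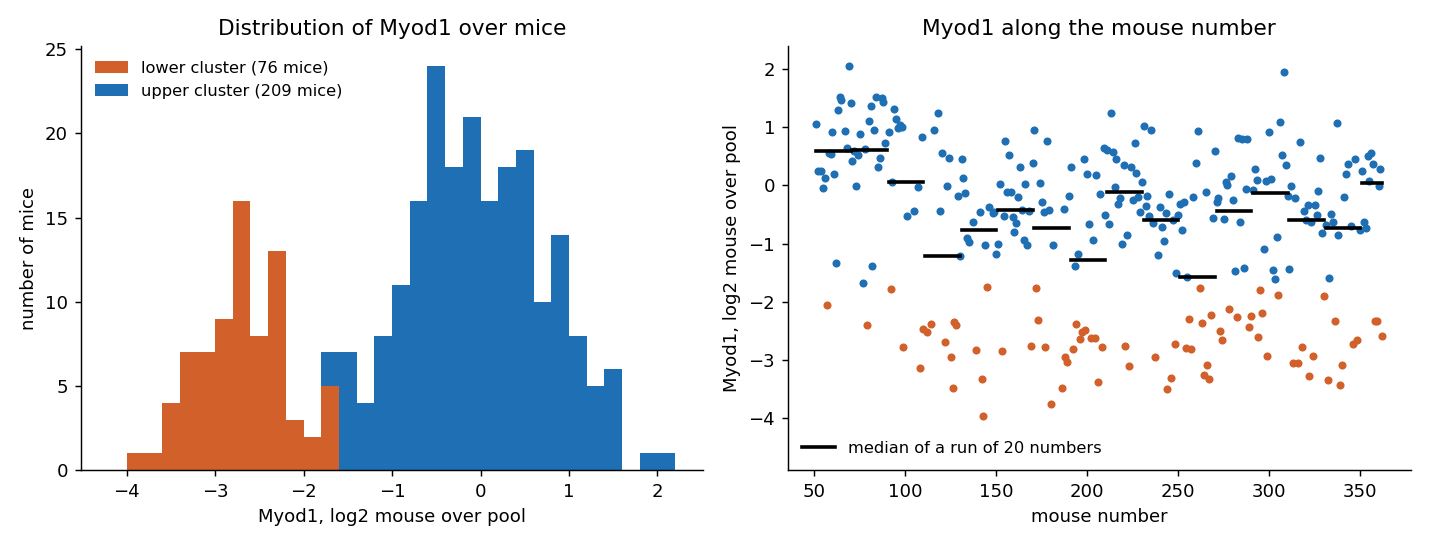
Left, the number of mice at each Myod1 value (log2 mouse over pool, bins of 0.2) in the lower cluster of 76 mice and the upper cluster of 209. Right, Myod1 against the mouse number, 1 point per mouse, with black lines for the median of each run of 20 numbers; mice of the lower cluster are scattered over the numbers but few lie between 51 and 90.

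In the sample titles only the mouse number and a mark (2) that ends 4 of them differ, and Myod1 was not spread evenly along the number. What the mark means is not stated; Myod1 was at -3.04 log2 in mouse 189, -0.94 in 203, -3.11 in 223 and -1.19 in 239, which carry it, so they lie in both clusters. Runs of 20 numbers accounted for 17.6% of its variance over 16 runs. A permutation test counted shuffles with at least this share (100000 shuffles, p = 1e-05, the smallest these shuffles can give). Within the upper cluster the share was 23.0% (permutation test, p = 4e-05). The highest medians were 0.61 in numbers 71 to 90 and 0.60 in numbers 51 to 70, and the lowest was -1.57 in numbers 251 to 270. These extremes differed by 2.18, more than the largest SD within a run (1.60). When the runs are ordered by their medians, neighbours in that order differed by at most 0.55, less than the smallest SD within a run (0.93), which is a description and not a test. Of the 36 mice numbered 51 to 90, 2 (5.56%) belonged to the lower cluster, against 74 of 249 (29.7%) above these numbers. What the number stands for is not stated, and its part in the relations below is given by the values with the runs as a block.

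Each of the other 11621 named genes was then fitted on Myod1 with limma over all 285 mice. A gene is said to rise or fall with Myod1, or to be called, where its adjusted p was under 0.05 and Pearson's r, which here pools both clusters, was at least 0.3 in size. Of all genes 45 rose (0.387%) and 55 fell (0.473%), together 0.861%. At an adjusted p under 0.05 alone there were 967 genes (8.32%), 432 upward (3.72%) and 535 downward (4.6%), and at an unadjusted p under 0.05 there were 2292 (19.7%).

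The genes most like Myod1 were genes of its own chromosome. Myod1 lies on chromosome 7, and 44 of the 906 other measured genes there were called (4.86%), 29 upward and 15 downward, against 52 of 10013 genes placed on other chromosomes (0.519%). Among the other chromosomes the largest share was 1.22%, on chromosome 13, and the largest number 6, on chromosome 9. The 20 genes with the largest r in size were all on chromosome 7, and the first gene elsewhere, Adamts15 on chromosome 9, came at rank 23. Another 4 called genes were probes annotated to records that matched no placed mouse gene. With the runs of numbers as a block, 48 genes were called (0.413%), 176 had an adjusted p under 0.05 (1.51%) and 1222 an unadjusted one (10.5%). Of the 48, 40 (83.3%) were on chromosome 7, 4 on other chromosomes and 4 not placed. Of the 44 called genes of chromosome 7, 32 kept their call with the block and 41 stayed under an adjusted p of 0.05.

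Car11, which encodes a carbonic anhydrase-related protein, had the highest correlation. It ranged from -1.24 to 0.82 log2 with a median of -0.05. It rose by 0.27 ± 0.02 log2 (SE) for each SD of Myod1 (r = 0.724, limma adjusted p = 7.43e-44). Its r was 0.593 in the upper cluster, 0.259 in the lower cluster and 0.713 with the block. In each of the 16 runs r was positive, from 0.412 to 0.890. In mouse 143, the lowest for Myod1, Car11 was at -0.74, and in mouse 69, the highest, it was at 0.36.

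Ush1c, which encodes the scaffold protein harmonin of hearing and vision, is the second measured gene before Myod1 on the chromosome. It ranged from -1.37 to 1.35 log2 with a median of -0.16 and rose by 0.39 ± 0.02 log2 per SD of Myod1 (r = 0.707, limma adjusted p = 5.04e-41). The correlation was 0.454 in the upper cluster, 0.328 in the lower cluster and 0.721 with the block, and it was positive in 16 of 16 runs (0.487 to 0.848). Per SD of Myod1, which is 1.38 log2, Ush1c and Car11 both changed by less than Myod1 itself. By the rule used for Myod1, 0 of the 44 called genes of chromosome 7 showed clusters, which is near the 1.88% of all named genes.

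Trpm4, a calcium-activated cation channel gene, ranged from -0.62 to 0.45 log2 and rose by 0.10 ± 0.01 per SD of Myod1 (r = 0.589, limma adjusted p = 2.72e-24). Its r was 0.551 in the upper and 0.356 in the lower cluster. The next 7 genes by r were Plekhf1 (r = 0.547), the zinc finger gene Zfp109 (0.505), the DNA single-strand break repair gene Xrcc1 (0.489), the kallikrein genes Klk1b26 (0.483) and Klk1b5 (0.433), Sae1 for a subunit of the SUMO-activating enzyme (0.459) and Ptgir for the prostacyclin receptor (0.446). With the block these 7 lay between 0.376 for Ptgir and 0.563 for Plekhf1. The kallikrein genes are close copies of each other, so which of them a probe measured is uncertain.

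**Figure D2:**
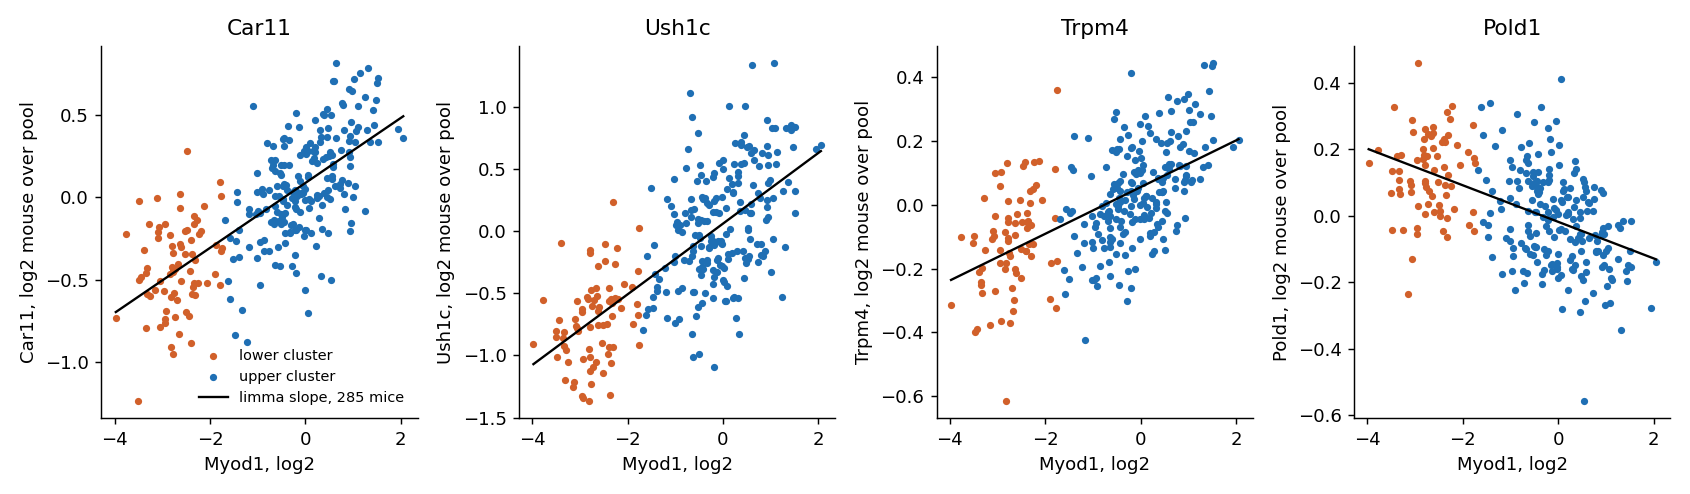
Values of Car11, Ush1c, Trpm4 and Pold1 against Myod1 (all log2 mouse over pool), 1 point per mouse, 76 in the lower and 209 in the upper cluster of Myod1; lines have the slope fitted by limma over 285 mice. Over all mice Car11, Ush1c and Trpm4 rose and Pold1 fell; within the lower cluster no slope of these 4 genes passed the test.

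Pold1, the catalytic subunit gene of DNA polymerase delta, had the lowest correlation. It ranged from -0.56 to 0.46 log2 with a median of 0.02 and fell by 0.08 ± 0.01 per SD of Myod1 (r = -0.505, limma adjusted p = 2.08e-16). The correlation was -0.397 in the upper cluster, 0.037 in the lower cluster and -0.462 with the block, and it was negative in 16 of 16 runs (-0.724 to -0.173). The next 9 falling genes were the water channel gene Aqp11 (r = -0.429), Fam71e1 (-0.425), the kinase gene Prkd2 (-0.406), Ano5, a gene mutated in limb-girdle muscular dystrophy (-0.404), Adamts15 (-0.375), the muscle glycogen synthase gene Gys1 (-0.370), Trim30d (-0.364), the unconventional myosin gene Myo7a (-0.364) and Lrrc28 (-0.362). Of these 10 falling genes, 9 are on chromosome 7. In the lower cluster alone r was above 0 for Pold1, Aqp11 (0.103), Gys1 (0.233), Trim30d (0.211), Myo7a (0.141) and Lrrc28 (0.00903).

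Over the 44 called genes of chromosome 7 the sign of r in the upper cluster matched the pooled sign in 44. There 39 passed an adjusted p of 0.05 (limma) and 24 kept their call. These genes were chosen by r over all 285 mice, of which the upper cluster holds 209, so the match is no independent test. In the lower cluster 31 of 44 had the pooled sign. The fit in the lower cluster called 0 of 11621 genes with limma, where 1365 (11.7%) had an unadjusted p under 0.05, and that in the upper cluster called 271 (2.33%), with 1676 (14.4%) at an adjusted p under 0.05 alone. Whether the relations differ between the clusters was not tested, and the lower cluster holds fewer mice over a shorter range.

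By distance from Myod1, called genes were counted in windows of measured genes. Of the 25 nearest measured genes on each side 6 of 50 were called (12%), then 5 of 50 in places 26 to 50 (10%), 8 of 100 in places 51 to 100 (8%), 9 of 200 in places 101 to 200 (4.5%) and 16 of 506 beyond (3.16%). On either side alone the shares did not fall steadily. After Myod1 they were 8%, 8%, 4%, 8% and 1.94% in these windows, and before it 16%, 12%, 12%, 1% and 5.08%. These shares were not compared by a test. The 6 near genes were Plekha4, Car11, Emp3 and Ush1c before Myod1 and Sergef and Ano5 after it. Plekha4 (r = -0.304) and Ano5 fell, while Emp3 (0.353) and Sergef (0.321) rose. With the block 3 of the 50 were called. Most close neighbours had no call, among them both genes next to Myod1, Otog (r = 0.13) and the potassium channel gene Kcnc1 (-0.03), the clock output gene Dbp beside Car11 (0.06), the lactate dehydrogenase gene Ldha (-0.07) and the muscle LIM protein gene Csrp3 (-0.17). Called genes reached from 321 measured genes before Myod1, of 397 on that side, to 509 after it, the last on that side. Further out they included Dkk3 (r = 0.372) and Sox6, a known repressor gene of slow fibre genes (-0.340). Both lost the call with the block (r = 0.271 and -0.266).

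**Figure D3:**
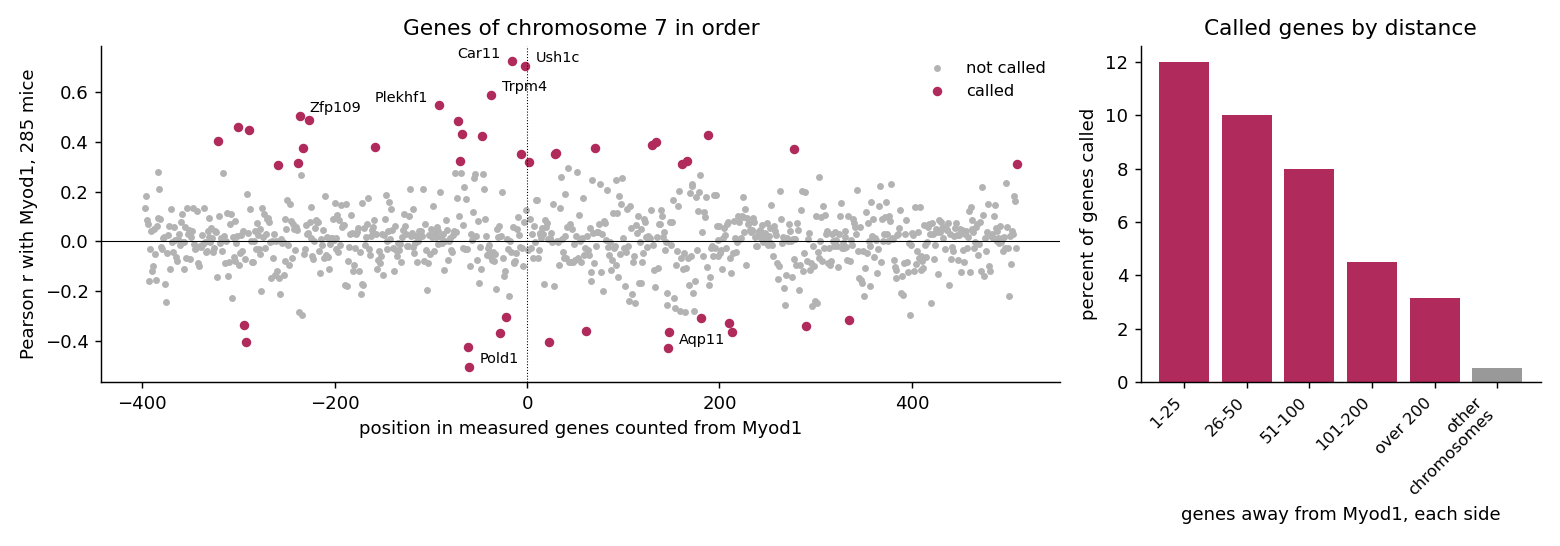
Left, Pearson's r with Myod1 over 285 mice for 906 measured genes of chromosome 7, placed by their order counted from Myod1 at 0; red points are the 44 called genes. Right, the percentage of genes called by distance from Myod1 in measured genes, both sides together, from 12% in the nearest 25 on each side to 3.16% beyond 200, with 0.519% on other chromosomes in grey.

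On other chromosomes 14 genes rose and 38 fell, with r between 0.30 and 0.375 in size. Their median r in size went from 0.321 to 0.209 with the block, whereas that of the 44 genes of chromosome 7 was 0.375 without and 0.371 with it. Within the upper cluster the order was the other way. There 43 of the 52 kept their call, against 24 of the 44, where 2.33% of all genes were called. An adjusted p under 0.05 (limma) was found there for 52 of the 52 and 39 of the 44. Both sets were chosen by r over mice that include this cluster. The 4 that kept their call with the block were Adamts15, a metalloprotease gene (r = -0.375, -0.311 with the block), Trp53inp1 (-0.358 and -0.313) and Sesn1 (-0.322 and -0.368), each a stress gene known to be induced by p53, and Ebf4 (0.349 and 0.353). Trp53inp1 ranged from -1.15 to 1.58 log2 and fell by 0.22 ± 0.03 per SD of Myod1 (limma adjusted p = 1.39e-07). The highest r elsewhere was that of the homeobox gene En2 (r = 0.365), which had 0.183 with the block (adjusted p = 0.107 from limma). Other rising genes were the ankyrin gene Ank1 (0.343), the small heat shock gene Hspb3 (0.340) and the growth factor gene Pdgfa (0.321), and other falling genes were the thrombin receptor gene F2r (-0.360), Gpihbp1, which holds lipoprotein lipase on capillaries (-0.359), and Map3k6 (-0.354). These genes of other chromosomes were named after their values had been seen.

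Lists of the MyoD network are read beside all genes, of which 0.861% were called and 19.7% had an unadjusted p under 0.05 (limma). An adjusted p under 0.05 was found for 8.32%. At 0.861%, a count of 0 called in lists this short is near the share of all genes. Of its 3 relatives 0 were called by limma, and 0 had an unadjusted p under 0.05. Myf5 had r = 0.055, Myf6 0.010 and Myog -0.010, although Myog itself varied between -2.13 and 1.86 log2. Among 12 measured bHLH partners and inhibitors 0 were called and 4 had an unadjusted p under 0.05. The lowest was Msc, a known repressor that competes with MyoD (r = -0.275, limma adjusted p = 0.000159), and the highest were Twist1 (0.178) and Mdfi (0.175), both known inhibitors of MyoD. With the block none of these 3 kept an adjusted p under 0.05: r was -0.193 for Msc (adjusted p = 0.0744, limma), 0.004 for Twist1 (0.992) and -0.006 for Mdfi (0.987). Of 13 co-factors 1 rose, the homeobox gene Six4 (r = 0.30, adjusted p = 2.48e-05, limma), with 0.403 in the upper cluster and 0.126 with the block, where it lost the call. The other 12 co-factors, among them Mef2a, Mef2d, Ep300 and Crebbp, lay between -0.068 and 0.112.

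Of 14 measured MyoD target genes 0 were called by limma and 2 had an unadjusted p under 0.05, both also under an adjusted p of 0.05. The cell cycle inhibitor gene Cdkn1a ranged from -1.86 to 1.88 log2 and changed by -0.19 ± 0.04 per SD of Myod1 (r = -0.280, adjusted p = 0.000111, limma), and r was -0.235 with the block. The receptor gene Chrng had r = 0.169 (adjusted p = 0.0499, limma), and 0.151 with the block, where it no longer passed (adjusted p = 0.256). Chrna1, whose promoter is shown above, had r = -0.029, and the muscle creatine kinase gene Ckm 0.028. The median r of the 14 was 0.009, beside 0.001 over all 11621 genes.

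Slow fibre genes correlated negatively with Myod1, below the size required for a call, and had no such relation with the block. Of 10 measured, 0 were called by limma (0.861% of all genes) and 8 had an unadjusted p under 0.05 (19.7% of all genes). An adjusted p under 0.05 was found for 7, all with negative r, against 4.6% of all genes downward. Their median r was -0.238, and the 7 were Myh7 (r = -0.234), Myl2 (-0.227), Tnnt1 (-0.243), Tnnc1 (-0.254), Atp2a2 (-0.241), Tpm3 (-0.248) and Myoz2 (-0.249), all genes of the slow sarcomere or its calcium handling. With the runs as a block the median was -0.033 and 0 of 10 had an unadjusted p under 0.05 (limma), against 10.5% of all genes. Myh7, the slow myosin heavy chain gene, moved with the number as well: its run median was -5.13 in numbers 51 to 70 and -3.19 in 71 to 90, the runs with the highest Myod1, but also -3.09 and -3.21 in 271 to 290 and 291 to 310, where the Myod1 medians were -0.44 and -0.13. In the lower cluster the median r of the slow genes was -0.374. There 9 of 10 had an unadjusted p under 0.05 (limma), against 11.7% of all genes. An adjusted p under 0.05 was found there for 0 of them and for 0 of all genes. Of 14 fast fibre genes listed 5 were measured, Mylpf, Tnnc2, Atp2a1, Pvalb and Casq1, none of them a myosin heavy chain gene. Among these 0 were called and 1 had an unadjusted p under 0.05 (limma), with a median r of 0.034. Myh7 and Tnnt1 fell into clusters of their own, and within joint clusters neither passed a permutation test after adjustment.

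**Figure D4:**
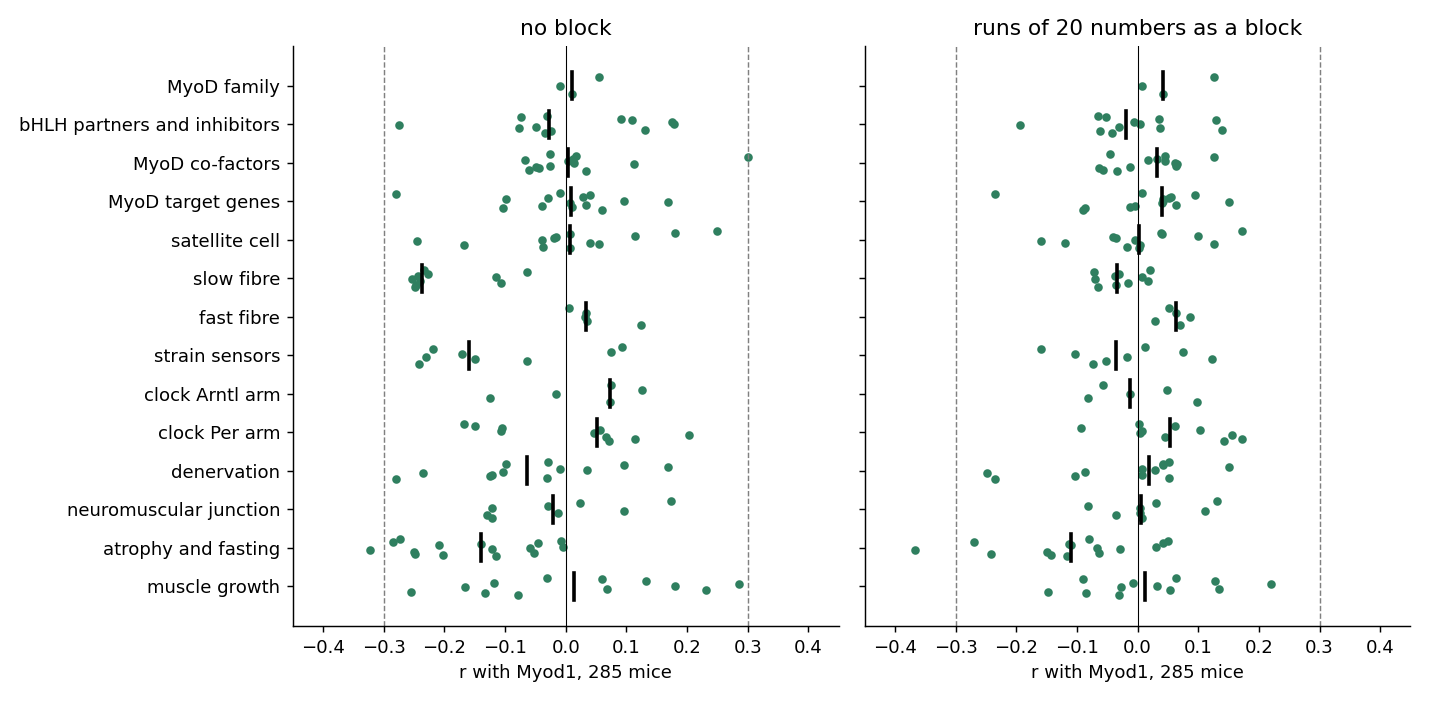
Pearson's r with Myod1 over 285 mice for the measured members of 14 gene lists, without (left) and with (right) runs of 20 mouse numbers as a block; each point is a gene, bars are list medians and dashed lines mark r of 0.3 in size. The slow fibre median of -0.238 moves to -0.033 with the block, while the MyoD family and target lists lie around 0 in both.

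Because Myod1 fell into clusters, 23 selected genes were also compared with it inside each cluster, 50 tests in all, with two-sided permutation tests of 100000 shuffles adjusted together. In the upper cluster 7 passed by Pearson's r and 9 by Spearman's rho, and in the lower cluster 0 passed. For comparison, 14.4% of all 11621 genes had an adjusted p under 0.05 in the limma fit of the upper cluster. In that of the lower cluster 0 of all genes had one. The limma values were adjusted over all genes and not over these 50 tests. The strongest was Cebpd, a transcription factor gene of the glucocorticoid and fasting response, with r = -0.339 and rho = -0.320 (permutation p = 1e-05, the smallest possible, adjusted p = 5e-04 for both). After leaving out the 2 mice whose Myod1 was farthest from its median, r was -0.363, and in the lower cluster it was -0.023. Cdkn1a had r = -0.262 and rho = -0.254 (permutation tests, adjusted p = 0.0025 and 0.0022). The stress and denervation gene Gadd45a had r = -0.205 and rho = -0.198 (permutation tests, adjusted p = 0.0266 and 0.0302).

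Of the clock genes among these tests, 4 passed in the upper cluster by both measures, while Arntl and Dbp did not. Nr1d1, which encodes the repressor REV-ERBα, had r = 0.267 and rho = 0.275 (permutation tests, adjusted p = 0.0025 and 0.00125). Per1 had r = -0.251 and rho = -0.276 (permutation tests, adjusted p = 0.0027 and 0.00167), and Per2 had r = -0.256 and rho = -0.255 (adjusted p = 0.0025 and 0.0022, permutation tests). The clock output gene Tef had r = -0.187 and rho = -0.198 (permutation tests, adjusted p = 0.0488 and 0.0302). Arntl, which encodes BMAL1, an activator of MyoD expression in muscle, passed by rho (0.193, permutation adjusted p = 0.0302) and not by r (0.150, adjusted p = 0.124). Dbp passed by neither, with r = 0.044 and rho = 0.017 (permutation tests, adjusted p = 0.782 and 0.856). With runs of 20 numbers as a block, 1 of 50 tests passed, that of Cebpd, and Per2 turned to r = 0.032. In the fit over all mice 0 of 5 measured genes of the Arntl arm and 0 of 10 of the Per arm were called by limma. An unadjusted p under 0.05 was found for 2 and 3, against 19.7% of all genes. In the limma fit of the upper cluster, 1 gene of the Per arm upward and 3 downward had an adjusted p under 0.05. For the Arntl arm there were 0. Nr1d2 (r = -0.046) and Per3 (-0.048) of the Per arm did not pass there.

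**Figure D5:**
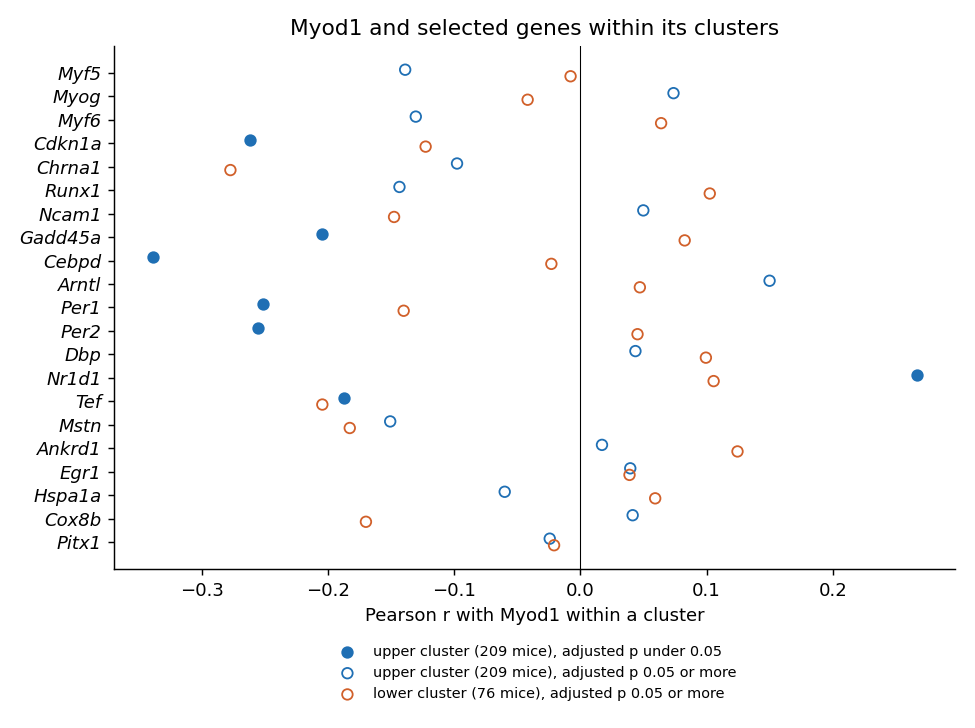
Pearson's r with Myod1 within the upper cluster (209 mice, blue) and within the lower cluster (76 mice, orange) for 21 selected genes without clusters of their own; filled points passed a permutation test at an adjusted p under 0.05. The 7 filled points are all in the upper cluster, from -0.339 for Cebpd to 0.267 for Nr1d1.

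Genes of denervation, of the neuromuscular junction, of atrophy and of growth were also followed over all mice. For comparison, 19.7% of all genes had an unadjusted p under 0.05 in this limma fit. Of 18 denervation genes listed 12 were measured, of which 0 were called and 5 had such a p. Gadd45a (r = -0.236) and Cdkn1a kept an adjusted p under 0.05 with the block (0.0048 and 0.0108, limma). Of 11 junction genes listed 8 were measured. Among these 0 were called and 4 had an unadjusted p under 0.05 (limma), with Chrne highest (r = 0.174, and 0.132 with the block, adjusted p = 0.377). Of 21 atrophy and fasting genes listed 15 were measured. Among these 1 was called, Sesn1 (0.861% of all genes), and 7 had an adjusted p under 0.05, each with negative r (4.6% of all genes). The 7 were Sesn1, Cebpd (-0.285), Foxo1 (-0.272), Ctsl (-0.249), Bnip3 (-0.249), Fkbp5 (-0.208) and Eif4ebp1 (-0.203). With the block 3 of the 15 had an adjusted p under 0.05, Sesn1, Cebpd and Ctsl, against 1.51% of all genes. Of 12 growth genes 0 were called and 8 had an unadjusted p under 0.05 (limma). Igfbp5, which binds insulin-like growth factors, had the highest r (0.286, adjusted p = 7.28e-05 with limma). The activin subunit gene Inhbb had the lowest (-0.255, and -0.148 with the block, adjusted p = 0.271), and the myostatin gene Mstn had -0.031. Within the upper cluster Mstn passed by rho (-0.182, permutation adjusted p = 0.0445) and not by r (-0.151, adjusted p = 0.124).

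Of 13 satellite cell genes 0 were called by limma and 4 had an unadjusted p under 0.05. Pax7, the defining factor of satellite cells, had r = 0.249 (limma adjusted p = 0.00097) and 0.387 in the upper cluster, and 0.173 with the block (adjusted p = 0.150). Pax3 had r = 0.180 and Sdc4 -0.245, and with the block 0.039 (adjusted p = 0.897) and -0.159 (adjusted p = 0.216). In 12 lists of markers of other cells, from connective tissue, tendon and fat to blood, nerve sheath, vessel, skin and liver, 0 of 86 measured genes were called by limma, against 0.861% of all genes. An adjusted p under 0.05 was found for 8 of them (9.30%), near the 8.32% of all genes, and an unadjusted one for 23, against 19.7% of all genes. The list medians of r lay between -0.154 for Schwann cells and 0.132 for erythroid cells, and between -0.043 and 0.033 with the block. Of 3 measured sex chromosome genes 0 were called and 0 had an unadjusted p under 0.05 (limma), with r from 0.079 to 0.090. The part of other cells in the relations above was not tested further. The array's median and SD had r of 0.028 and 0.024 with Myod1, the share of missing values 0.167, and the fourth component of all arrays 0.364 in size. The share of missing values recurred at a few levels over many mice. Most mice numbered up to 212 had 0.00072, as mouse 51, or 0.00153, as mouse 54 of the same run. Most from 213 on had 0.00089, as mouse 213, or 0.00064, as mouse 217. What these levels stand for is not stated. The block of runs takes up most of the change after 212 but not the levels that differ within a run. Their part in the relations above was not tested.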

How the data were processed

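The deposited value table holds 1 ratio for each probe and mouse, which was read as log10 of mouse over pool; the labels do not state the unit. Per the labels, each mouse was Cy3 and the pool Cy5. Because the pool contains every mouse, mean linear ratios should lie near 1: the Y-linked gene Eif2s3y had 0.796 as read and 23.2 with the sign turned, and Kdm5d 0.942 and 3.43. For base 2 the Eif2s3y means were 0.751 and 1.92, so the base is less certain than the sign. Array pairs correlated down to -0.745, with 2.48% under -0.3, and the direction was kept since 1 mouse can be above and another below the pool. Array medians of the deposited values lay between -0.0222 and 0.0173; how the authors normalized them is not given in the sources used here. Scanner intensities were not used, so signal over background is unknown, and the number of arrays limits the precision.

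Probes with values on at least 80% of arrays were kept (23510), missing values (0.0972%) were set to the probe mean, values were converted to log2 and probes of a gene averaged. Gene names come from the platform annotation, updated by Entrez identifier for 12650 of 13653 probes with 1 symbol (48 had several and 9859 none). Chromosome and gene order come from RefSeq, GRCm38.p6, and 702 genes were not placed. Clusters required a BIC gain over 10, means over 3 SD apart and at least 5% of mice in each.

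Every named gene was fitted on Myod1 with lmFit and eBayes (limma 3.58.1, R 4.3.3; Python 3.11.15, SciPy 1.17.1, scikit-learn 1.9.0), with Benjamini-Hochberg adjustment over 11621 genes. The genes named are the 10 with the highest and lowest r among those called, the called neighbours, the selected pairs and called members of the lists; other genes of chromosome 7 (Otog, Kcnc1, Dkk3, Sox6), genes of other chromosomes and list members without a call are examples chosen after their values were seen. The members and lists were chosen with earlier results of these data known. The mice are separate animals, but nothing in the labels replicates a mouse. Alternatives were other scalings, components removed, number runs as a block, subsets of mice, ranks and other thresholds; fits within clusters were added after seeing the data.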

Additional observations from a re-analysis of the deposited data

How the results depend on the processing

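No paired analysis was possible because the mice form 1 group. Against 45 rising and 55 falling genes, 28 rose and 20 fell with runs of 20 numbers as a block, 28 and 19 after removing a smooth trend along the number, 160 and 170 in the lower-numbered mice, 23 and 18 outside numbers 51 to 90 and 271 to 310, 260 and 330 at a minimum r of 0.2, 13 and 5 at 0.4, 432 and 535 by adjusted p alone, 69 and 95 with unnamed probes added, 150 and 121 in the upper cluster and 0 and 0 in the lower cluster. Ranks gave 75 rising genes, the cluster as a covariate 85, and 25 fell after removing 5 components. On chromosome 7 the 44 called genes became 69 in the lower-numbered mice, 20 with the cluster as a covariate and 0 in the lower cluster. The 52 on other chromosomes became 9 without 5 components, 4 with the block, 3 without the trend, 239 in the lower-numbered mice, 3 outside the named runs, 96 by ranks, 210 in the upper cluster, 98 with the cluster as a covariate and 0 in the lower cluster. The 6 neighbours became 3 without 5 components, with the block, without the trend, outside the named runs, with the cluster as a covariate and within 10 genes on each side, 11 within 50, and 0 in the lower cluster. Of the pair tests, 7 passed, against 12 with scaled arrays, 1 without 5 components, with the block, outside the named runs and with shuffles inside runs, 3 without the trend and 0 in the higher-numbered mice. In the lower cluster r turned for Aqp11 (0.103), Gys1 (0.233), Lrrc28 (0.00903), Myo7a (0.141), Pold1 (0.037), Sergef (-0.052), Trim30d (0.211), Ebf4 (-0.109) and Hspb3 (-0.134). In the upper cluster Per2 turned with the block (0.032), without the trend (0.00267) and in the higher-numbered mice (0.090), and Tef in the latter (0.037). Fits in subsets and clusters have fewer mice, and the cause of these changes, in either direction, was not tested. For the genes named, 604 values under alternatives stayed on the same side of the threshold, 222 lost it and 13 turned. The share of variance between runs was 17.6% for runs of 20, 23.9% for 10, 13.3% for 40 and 20.2% on ranks.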
